A study of Mus musculus with 4 samples.

Results

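The 4 adult haemoglobin genes counted in these libraries were *Hba-a1* and *Hba-a2*, which encode the alpha chain, and *Hbb-bs* and *Hbb-bt*, which encode the beta chain. They were taken by symbol from the gene lists, as 4 of the 32285 genes, and were followed in every cell class and in near-empty barcodes of each library. The genes were picked with their levels already known, so levels by class are given as a description without a test. Single-nucleus RNA (10x 3' chemistry) was read from whole-brain nuclei of female mice of the 5XFAD genotype, a transgenic model of amyloid deposition. The mice, labelled 7 to 10 weeks old, had received engineered, exosome-enriched extracellular vesicles (EVs) into a vein, rebuilt from vesicle lipids without their nucleic acids and proteins and carrying little phosphatidylethanolamine (PE-low-EV) or much of it (PE-high-EV). Both groups therefore carried the transgenes and received vesicles, and neither a vehicle nor a wild-type library was analysed here. Each group had 2 libraries, each pooled from 2 mice, and the brains were frozen, sectioned and taken apart with a nuclei isolation kit. Whether these mice were perfused is not stated in the sources used here.

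Haemoglobin carries oxygen in red blood cells as a tetramer of alpha and beta chains, each holding a haem group. Its mRNA is made in erythroid precursors in the bone marrow and persists in reticulocytes, which have already lost their nucleus. Red cells in vessels can therefore bring haemoglobin mRNA into a brain sample without a nucleus of their own. In droplet sequencing, RNA free in the suspension is captured together with nuclei and also alone, in droplets without a nucleus. Low haemoglobin expression in some neurons and glia has also been described.

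All 4 genes have 3 exons, and none overlaps another annotated gene (GRCm38, GENCODE M21). *Hba-a1* (ENSMUSG00000069919) lies on the forward strand of chromosome 11 from 32283511 to 32284465, and *Hba-a2* (ENSMUSG00000069917) lies next to it from 32296489 to 32297298. *Hbb-bs* (ENSMUSG00000052305) lies on the reverse strand of chromosome 7 from 103826534 to 103828096, and *Hbb-bt* (ENSMUSG00000073940) from 103812524 to 103813996. The 120 bases before the RefSeq start of each gene (GRCm38.p6) are shown because they hold the elements that adult globin promoters are known for. Capitals mark every CACCC box, every CCAAT box and every ATATAA element, searched on both strands. The windows are chr11:32283552-32283671 and chr11:32296372-32296491 on the forward strand, and chr7:103827929-103828048 and chr7:103813924-103814043 on the reverse strand. The RefSeq start lies inside the GENCODE gene, so the windows overlap its first exon.
Hba-a1: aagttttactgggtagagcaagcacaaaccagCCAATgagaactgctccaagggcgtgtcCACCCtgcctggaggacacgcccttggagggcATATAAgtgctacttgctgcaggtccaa
Hba-a2: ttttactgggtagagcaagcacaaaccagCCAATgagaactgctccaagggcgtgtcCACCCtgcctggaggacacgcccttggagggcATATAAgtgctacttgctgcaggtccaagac
Hbb-bs: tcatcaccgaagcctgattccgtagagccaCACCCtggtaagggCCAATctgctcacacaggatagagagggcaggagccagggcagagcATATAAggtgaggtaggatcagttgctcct
Hbb-bt: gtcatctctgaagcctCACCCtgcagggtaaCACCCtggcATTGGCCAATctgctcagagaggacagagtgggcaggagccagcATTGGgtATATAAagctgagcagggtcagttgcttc

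All 4 windows held each of the 3 motifs, and ATATAA ended 23 to 26 bases before the start. Among 32851 mouse promoter windows of the same length, CACCC was in 31.7%, CCAAT in 21.3% and ATATAA in 4.47%, and 94 windows (0.286%) held all of them. A match of letters is a description and not a measured binding site. The alpha promoters were identical over 247 of 247 aligned bases at an offset of 3 bases, whereas the beta promoters matched at 127 of 249 (51.0%).

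The likeness of the transcripts bears on how well the genes can be told apart. The alpha transcripts matched at 537 of 538 aligned bases (99.8%) and the beta transcripts at 580 of 626 (92.7%). In the last 300 bases, the end read by this chemistry, 121 of 211 windows of 90 bases in *Hba-a1* also occurred in *Hba-a2*, and 105 of 211 the other way. Only 52 of 211 such windows of *Hbb-bs* occurred in *Hbb-bt*, and none of *Hba-a1* occurred in *Hbb-bs*. Reads from a shared window cannot be assigned to 1 gene, so the split between the alpha genes is uncertain. More of the alpha than of the beta windows were shared, so the alpha sum may have lost more reads than the beta sum, and the alpha share given below may be too low.

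The 4 libraries held 41470611, 43272337, 32515094 and 29472021 unique molecular identifiers (UMIs), given here and below in the order PE-low-EV replicates 1 and 2, PE-high-EV replicates 1 and 2. Calling gave 8734 to 13915 nuclei per library, and 10688 nuclei in all passed the thresholds of the study (200 to 2500 genes, at most 3% mitochondrial UMIs). Pairs of libraries shared 27 to 53 called barcodes, at most 0.447% of the smaller library. The paper reports a far larger number of nuclei and an endothelial cluster, so the smaller set kept here does not stand for its nuclei. No endothelial class could be named among the nuclei kept at 3%, so a limit of 15%, which kept 37509 nuclei, was used beside it. The number kept at this looser limit is close to that in the paper. Whether they are the same nuclei was not tested. PE-low-EV replicate 1 stood apart in the endothelial-like nuclei at 15%. There *Cxcl10*, an interferon-induced chemokine gene, was at 2.31 CPM (UMIs scaled to a total of 1e+06), against 6313, 5115 and 4151 CPM in the other libraries. Results that rest on that library are given with and without it.

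Haemoglobin was a minor but general part of every library. The 4 genes together had 6606, 5273, 5959 and 6915 UMIs, or 159, 122, 183 and 235 CPM. Near-empty barcodes, defined as those ranked 45000 to 90000 by UMIs in each library (at most 212 to 299 UMIs each), held 263, 211, 286 and 308 CPM, a mean of 267 ± 41.7 (SD, n = 4 libraries). In the kept nuclei the level was 34.1, 24.3, 37.0 and 39.0 CPM, with 815 haemoglobin UMIs in 10688 nuclei. The level in nuclei was thus 0.130, 0.115, 0.129 and 0.127 of that in near-empty barcodes of the same library. This ratio varied less between libraries than the levels themselves did, but its mean of 0.125 became 0.278 with a mitochondrial limit of 15% and 0.315 with none.

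*Hbb-bs*, an adult beta gene, was the highest of the 4 in UMIs in each of these barcode sets (UMIs count transcript ends and were not divided by length). It stood at 161, 132, 172 and 189 CPM in near-empty barcodes, where it ranked 874th to 1369th among the 19789 to 20451 genes detected there. In kept nuclei it was at 21.1, 14.4, 21.1 and 26.0 CPM. *Hba-a1* had 43.9, 32.3, 49.9 and 53.8 CPM in near-empty barcodes and 6.79, 4.84, 5.62 and 4.51 CPM in kept nuclei. *Hba-a2*, the second alpha gene, had 34.0, 27.2, 39.98 and 36.5 CPM and 3.61, 3.37, 6.94 and 4.82 CPM in the same sets. *Hbb-bt*, the other adult beta gene, had 23.8, 19.5, 24.9 and 28.6 CPM and 2.60, 1.69, 3.30 and 3.73 CPM. Every gene was lower in the nuclei than in the near-empty barcodes of each library, with no overlap between the 2 sets.

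From 200 UMIs upward, deeper barcodes had less haemoglobin per UMI, with 1 exception. Barcodes with 1 to 9 UMIs were lower than those with 200 to 499, at 124, 133, 161 and 185 CPM. Barcodes with 200 to 499 UMIs had 250, 204, 274 and 365 CPM of haemoglobin. Those with 2000 to 4999 UMIs had 42.8, 33.1, 29.9 and 41.2 CPM, and those with 5000 or more had 21.3, 19.6, 9.93 and 14.3 CPM. The exception was PE-high-EV replicate 2 between 500 and 999 UMIs, at 419 CPM. Without its barcodes that held 10 or more haemoglobin UMIs, the value there was 108 CPM. The deepest set rested on 31, 94, 3 and 4 haemoglobin UMIs.

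**Figure D1:**
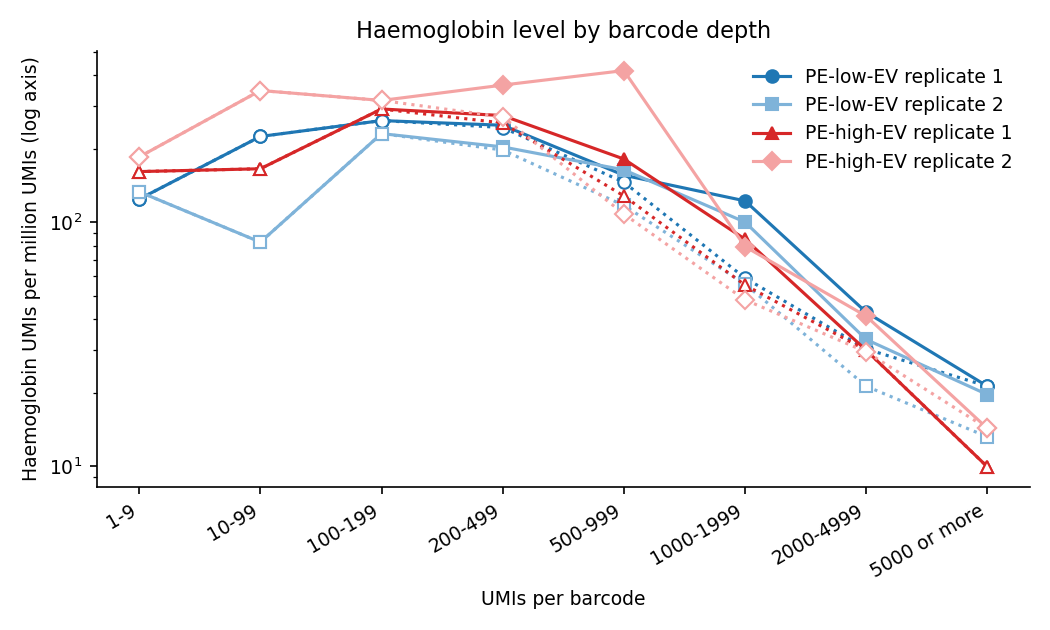
Haemoglobin CPM (log axis) against UMIs per barcode in 8 depth bins, 1 line per library. Filled markers and solid lines include every barcode, and open markers and dotted lines leave out barcodes with 10 or more haemoglobin UMIs. In every library the bins from 1000 UMIs upward lie below the bin of 200 to 499 UMIs.

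The level also differed with the mitochondrial share of the called nuclei. It was 24.3 to 39.0 CPM in nuclei with up to 3% mitochondrial UMIs and 185 to 371 CPM in those with 10 to 15%. Without barcodes of 10 or more haemoglobin UMIs, the latter stood at 63.3 to 120 CPM. Above 15% the level was 144, 99.8, 181 and 520 CPM, lower than at 10 to 15% in all libraries but PE-high-EV replicate 2. Without barcodes of 10 or more haemoglobin UMIs it was 133, 59.6, 151 and 152 CPM there, lower than at 10 to 15% only in PE-low-EV replicate 2. Nuclei with 10 to 15% were also shallower, with median UMIs of 631 to 1233 against 1712 to 2885, and the part of depth in the difference was not tested.

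Among nuclei kept at 3%, every named class had less haemoglobin per UMI than the near-empty barcodes of its library. Excitatory neuron-like nuclei had 31.9, 21.7, 23.0 and 32.3 CPM, a mean of 27.2 ± 5.63 (SD, n = 4), from 342 UMIs in 4545 nuclei. Striatal projection neuron-like nuclei had 32.0, 21.9, 61.3 and 33.7 CPM, and inhibitory neuron-like nuclei 32.5, 23.0, 49.3 and 44.6 CPM. The neuronal classes overlapped, with excitatory neuron-like nuclei lowest on average.

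The glial classes rested on few UMIs. Oligodendrocyte-like nuclei had 30.2, 52.2, 34.4 and 54.5 CPM (39 UMIs in 514 nuclei) and astrocyte-like nuclei 60.3, 37.5, 36.6 and 76.4 CPM (39 UMIs in 491). Oligodendrocyte precursor-like nuclei had 72.5, 36.7, 126 and 88.5 CPM (22 UMIs in 242). Microglia-like nuclei ranged from 13.0 CPM in PE-low-EV replicate 2 to 158 CPM in PE-high-EV replicate 2, with 18 UMIs in 166 nuclei. By mean level the order was excitatory, striatal, inhibitory, oligodendrocyte, astrocyte, microglia and precursor, and the ranges of each pair of neighbours in it overlapped.

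Set against near-empty barcodes of the same library, excitatory neuron-like nuclei stood at 0.0804 to 0.121 and astrocyte-like nuclei at 0.128 to 0.248. The markers of other non-neuronal classes in the same nuclei stood at 0.224 to 0.275 and 0.303 to 0.415 of their near-empty level. They are only a rough gauge of RNA from elsewhere, since no neuronal marker was among them. Doublets and a low expression of their own may also add to these counts. In oligodendrocyte-like nuclei haemoglobin stood at 0.115 to 0.248 and those markers at 0.260 to 0.359. The haemoglobin ratio was below that of these markers in every library in these 3 classes and in the inhibitory and striatal neuron-like nuclei. It was above in PE-high-EV replicate 1 of the precursor-like nuclei (0.441 against 0.413) and in PE-high-EV replicate 2 of the microglia-like nuclei (0.513 against 0.453). The part of RNA from elsewhere in the haemoglobin counts was not tested.

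Shares of barcodes with a haemoglobin UMI depend on depth, so barcodes were thinned to 200 UMIs, a depth chosen after the data had been seen, and shallower ones were left out. This left out none of the kept nuclei but 17077, 21585, 23459 and 37655 of the 45000 near-empty barcodes per library. The near-empty barcodes that remained, the deeper ones, had a haemoglobin UMI in 4.96%, 4.07%, 5.47% and 5.61%. Excitatory neuron-like nuclei had one in 0.476 to 0.737%, inhibitory neuron-like nuclei in 0.507 to 1.20% and astrocyte-like nuclei in 0.721 to 2.35%. No class named at 3% reached the near-empty share. Unthinned, 6.42 to 7.52% of kept nuclei and 2.87 to 4.40% of near-empty barcodes had at least 1 haemoglobin UMI, an order that goes with their depth.

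With the limit at 15%, endothelial cell-like nuclei had the highest haemoglobin level of the named classes with over 200 nuclei. Endothelial cells line the vessels and are the cells next to circulating red cells. Their level was 1284, 627, 1300 and 605 CPM, a mean of 954 ± 391 (SD, n = 4), from 556, 144, 195 and 88 UMIs in 323, 162, 144 and 146 nuclei. This was 4.89, 2.97, 4.54 and 1.96 times the near-empty level of the same library. The next of these named classes, microglia-like nuclei, had 68.2, 66.2, 343 and 194 CPM and did not overlap with it.

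Much of this excess sat in few nuclei. Without nuclei of 10 or more haemoglobin UMIs, a limit chosen after the data had been seen, endothelial cell-like nuclei had 169, 142, 293 and 156 CPM. These values were 0.655, 0.672, 1.04 and 0.506 of the near-empty level, with such barcodes left out there too. Markers of other non-neuronal classes, pericytes and fibroblasts left out, stood at 0.510 to 0.638 of theirs. The share of endothelial cell-like nuclei with a haemoglobin UMI was 13.3%, 14.8%, 14.6% and 10.96%. Thinned to 500 UMIs, which left out 20 and 22 shallower nuclei of PE-high-EV replicates 1 and 2, it was 8.87 to 11.8%. Excitatory neuron-like nuclei then had 1.12 to 1.96% and astrocyte-like nuclei 2.62 to 4.27%, below the endothelial share in every library, PE-low-EV replicate 1 included. The few fibroblast-like nuclei had 7.89 to 15.5%, above it in both PE-low-EV libraries and below it in both PE-high-EV libraries. Thinned to 200 UMIs, the endothelial share was 5.08 to 6.94%. It was above that of near-empty barcodes in all libraries but PE-high-EV replicate 2 (5.08 against 5.61%). The clusters under this name differed by library. Those of 189, 69 and 52 nuclei drew 188, 69 and 51 from PE-low-EV replicate 1, and the largest, of 337, drew 1. Levels ran from 38.2 to 2731 CPM over these clusters. The highest had 69 nuclei and 286 haemoglobin UMIs, and 121 CPM without nuclei of 10 or more. The pericyte markers *Vtn* and *Rgs5* were among its leading genes. A cluster of 151 nuclei with these genes stayed unnamed.

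The vessel-associated fibroblast-like nuclei were few and uneven. They had 240, 4561, 1074 and 133 CPM from 10, 137, 20 and 3 UMIs in 39, 20, 22 and 29 nuclei. Without the nuclei of 10 or more haemoglobin UMIs the values were 240, 231, 112 and 133 CPM. Microglia-like nuclei then had 68.2, 66.2, 92.8 and 108 CPM. Oligodendrocyte-like nuclei had 66.2, 65.8, 105 and 206 CPM, of which the last became 93.3 CPM when 1 nucleus was left out. The neuronal classes stayed between 20.5 and 60.6 CPM and astrocyte-like nuclei between 50.4 and 81.6 CPM. Ependymal-like nuclei had 1 haemoglobin UMI in 55 nuclei, which is too few to set a level.

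**Figure D2:**
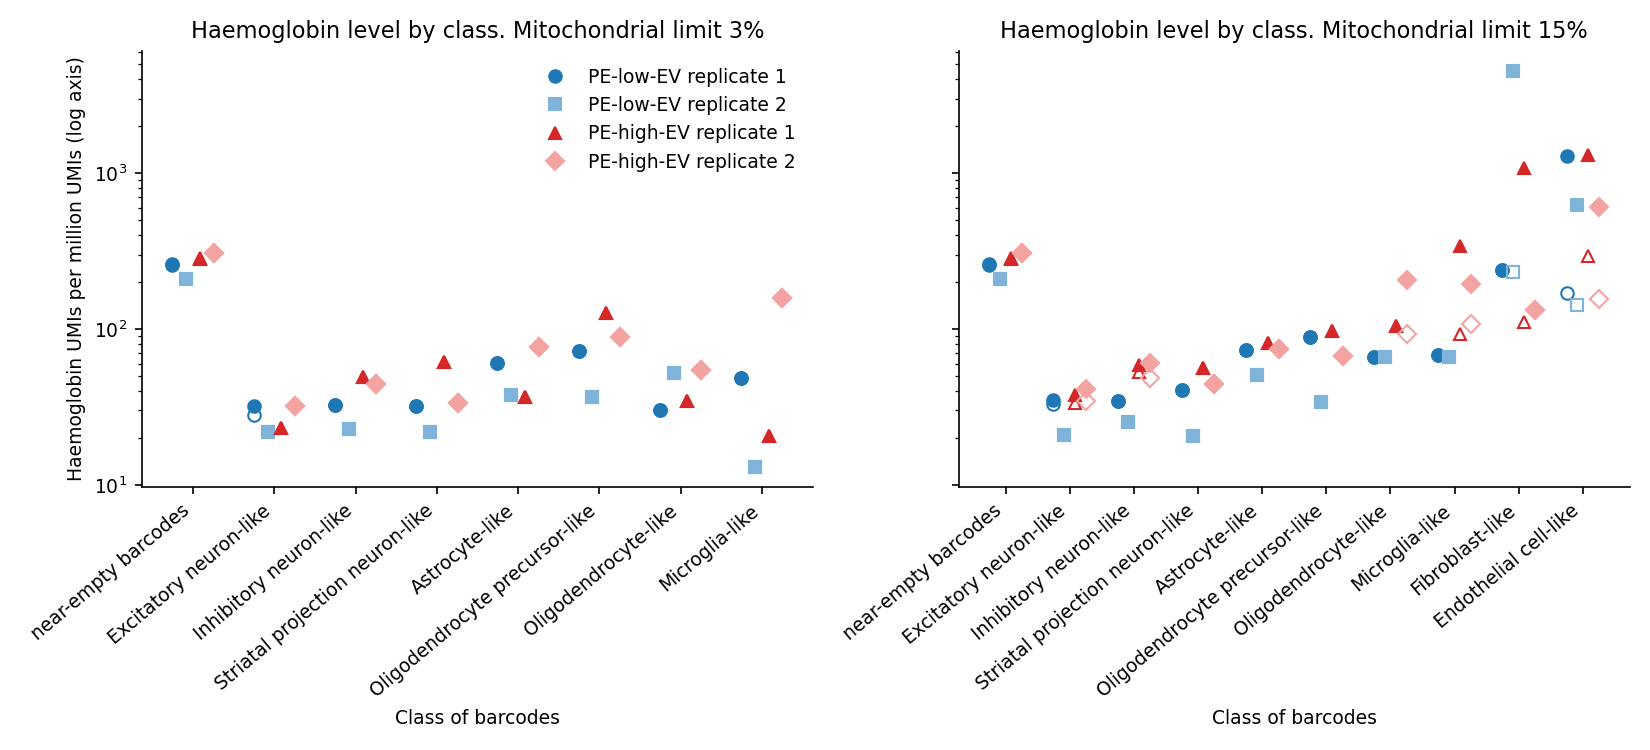
Haemoglobin CPM (log axis) in near-empty barcodes and in each named class but the ependymal-like, 1 marker per library, with the mitochondrial limit at 3% (left) and 15% (right). Unnamed clusters are not shown. Open markers leave out barcodes with 10 or more haemoglobin UMIs. Endothelial cell-like nuclei lie above near-empty barcodes only with those barcodes included, apart from PE-high-EV replicate 1.

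At the 15% limit 1 cluster of 1212 nuclei was led by *Hbb-bs*, *Hba-a2* and *Hba-a1*, followed by *Rpl19*, *Atp6v0c* and *Chchd2*. It drew 413, 136, 388 and 275 nuclei from the libraries and had a median of 597 UMIs per nucleus. It was left unnamed, since haemoglobin and ribosomal genes led it. The unnamed clusters at this limit held 1928 nuclei and took no place in the order of classes above. Their haemoglobin level is not given here, and that order does not say where they stand. They held the highest single barcodes of PE-low-EV replicate 2 (147 haemoglobin UMIs) and PE-high-EV replicate 1 (108). Unthinned, 8.03 to 13.3% of their nuclei had a haemoglobin UMI. Thinned to 500 UMIs, which left out 223 and 175 nuclei of PE-high-EV replicates 1 and 2, it was 5.05 to 7.41%. This lay between the astrocyte-like and the endothelial cell-like shares in every library.

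With the libraries added up, the alpha share was similar in most barcode sets. Over all barcodes *Hbb-bs* made up 61.2%, *Hba-a1* 16.7%, *Hba-a2* 13.3% and *Hbb-bt* 8.81% of 24753 haemoglobin UMIs. The alpha genes together made up 29.996% over all barcodes (95% Wilson interval 29.4 to 30.6%). They made up 29.8% in near-empty barcodes (28.7 to 30.9%) and 29.8% in nuclei kept at 3% (26.8 to 33.0%). In the classes at 15% the alpha share was between 29.3% in excitatory neuron-like nuclei (26.3 to 32.5%) and 33.8% in microglia-like nuclei (28.4 to 39.7%). These intervals cover counting error only. The intervals of these 5 sets overlapped. Single libraries departed from this. In endothelial cell-like nuclei the alpha share was 29.5%, 43.75%, 36.9% and 28.4%, and in PE-low-EV replicate 2, with 144 UMIs, its interval (35.9 to 51.9%) lay above that of the whole library (28.9 to 31.3%).

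Libraries differed slightly in the alpha share. It was 29.8%, 30.1%, 32.2% and 28.2% over all barcodes, with PE-high-EV replicate 1 highest and replicate 2 lowest. *Hbb-bt* made up 13.4% of haemoglobin UMIs in microglia-like nuclei at 15%, with 36 UMIs, against 7.53% in endothelial cell-like nuclei. The *Hbb-bs* share of beta UMIs was 79.8% in microglia-like nuclei (73.3 to 85.0%) and 87.4% over all barcodes (86.9 to 87.9%). By library it was 89.7%, 86.7%, 78.1% and 73.7% in microglia-like nuclei, of which the first 2 had only 29 and 15 beta UMIs. The lower values came from the PE-high-EV libraries, in which 3 microglia-like nuclei had 10 or more haemoglobin UMIs.

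**Figure D3:**
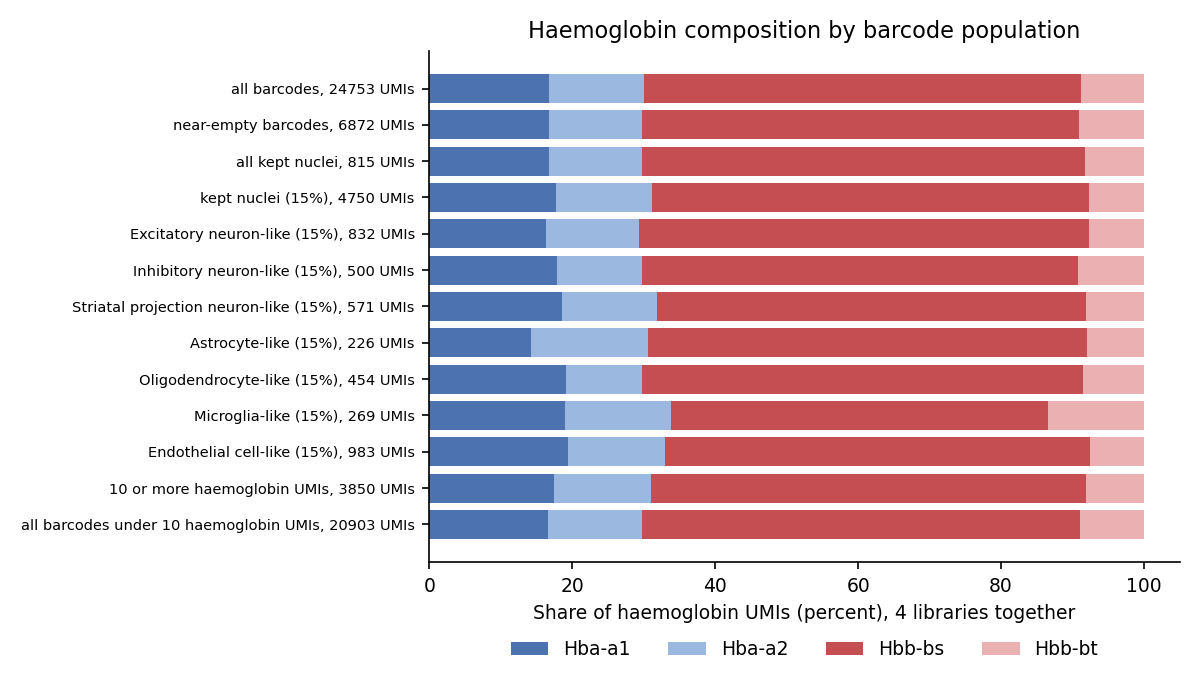
Share of haemoglobin UMIs from each of the 4 genes (percent, from 0 to 100), by barcode set, with the 4 libraries added up. The alpha genes make up 29.3 to 33.8% in every set shown.

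Barcodes with 10 or more haemoglobin UMIs were rare. They numbered 15, 16, 18 and 28, or 77 of 2775555 barcodes with a UMI, and held 611, 607, 645 and 1987 haemoglobin UMIs. This was 9.25%, 11.5%, 10.8% and 28.7% of the haemoglobin of their library, and the highest single barcodes had 256, 147, 108 and 390 haemoglobin UMIs. PE-high-EV replicate 2 was above the others both in their number and in their share. In contrast, barcodes with exactly 1 haemoglobin UMI held 78.8%, 77.8%, 78.8% and 64.4% of it. The alpha share in the 77 barcodes was 31.1% (29.6 to 32.5%), against 29.8% (29.2 to 30.4%) in all other barcodes. In those of PE-low-EV replicate 2, *Hbb-bt* made up only 1.98% (12 of 607 UMIs), against 7.91 to 10.02% in the other libraries.

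Of these 77 barcodes, 49 were called as nuclei, 36 were kept at 15% and 1 was kept at 3%. At 15% 18 of them were endothelial cell-like, 8, 3, 4 and 3 by library, or 2.32% of 775 such nuclei (Wilson interval 1.47 to 3.64%). Excitatory neuron-like nuclei held 3 among 10121 (0.0296%, 0.0101 to 0.0871%) and inhibitory neuron-like nuclei 2 among 5813. Microglia-like nuclei held 3 among 1818, fibroblast-like nuclei 2 among 110 and oligodendrocyte-like nuclei 1 among 4659. Unnamed clusters held 7 among 1928. Astrocyte-like (3161) and striatal projection neuron-like nuclei (7917) held none, which allows shares of up to 0.121% and 0.0485%. Without PE-low-EV replicate 1, 10 endothelial cell-like nuclei remained among 452.

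The other RNA of the 77 barcodes was rich in endothelial markers. The 8 markers, among them *Flt1*, *Adgrl4* and *Slco1a4*, stood at 5177, 3357, 2768 and 3086 CPM of non-haemoglobin UMIs. In near-empty barcodes they stood at 83.3, 31.7, 27.8 and 32.7 CPM and in nuclei kept at 15% at 226, 128, 82.1 and 85.9 CPM. Over the libraries the 77 barcodes held 260 UMIs of these markers, 84 of them of *Flt1*, a receptor of vascular endothelial growth factor. In each library only 6 or 7 of the barcodes had such a UMI.

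The barcodes richest in haemoglobin had another makeup. PE-high-EV replicate 2 held 3 barcodes in which haemoglobin made up at least 40% of the UMIs, with 390 of 606, 313 of 487 and 219 of 445. They had no UMI of the 8 endothelial markers among 616 non-haemoglobin UMIs. Genes of the erythroid list had 15 UMIs there, 26.9 times the near-empty level. Among them were *Bpgm* (5 UMIs), which makes 2,3-bisphosphoglycerate in red cells, *Bnip3l* (4), needed to clear mitochondria from reticulocytes, *Alas2* (2), the erythroid enzyme of haem synthesis, and *Ube2l6* (1). *Bnip3l* is also expressed in brain. The other libraries held no such barcode.

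Over the 32 barcodes with at least 100 UMIs and at least 5% haemoglobin (2, 5, 7 and 18 by library), 29 non-haemoglobin genes had 20 or more UMIs. Of these, the one furthest above near-empty barcodes was *Cxcl10*, at 57.0 times from 22 UMIs. *Bsg*, a surface protein of red cells and brain endothelium, followed at 2.88 times from 27 UMIs. Mitochondrial transcripts came next, at 1.55 times for *mt-Cytb*.

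**Figure D4:**
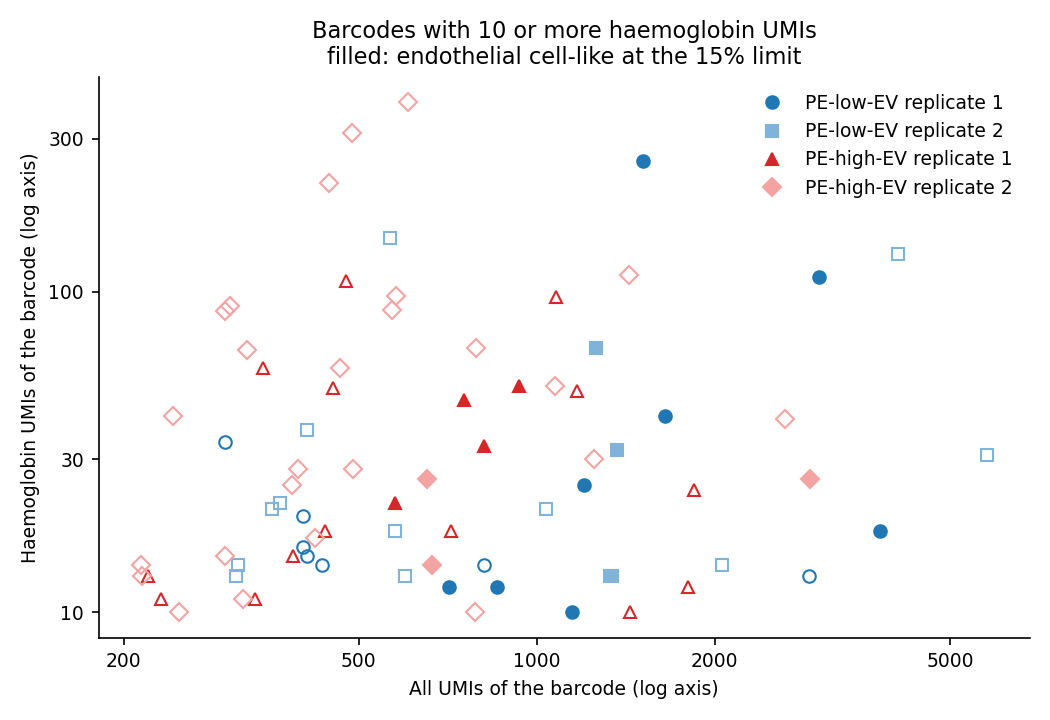
Haemoglobin UMIs against all UMIs (both log axes) of the 77 barcodes with 10 or more haemoglobin UMIs, by library. Filled markers are endothelial cell-like nuclei at the 15% limit. The barcodes with 390, 313 and 219 haemoglobin UMIs belong to PE-high-EV replicate 2 and are not among them.

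The embryonic globin genes were near 0, whereas *Cygb* was not. Of 10 listed, 9 were in the gene lists and 4 had no UMI in near-empty barcodes. Among the embryonic chains *Hba-x*, *Hbb-bh1* and *Hbb-bh2* had 0 UMIs and *Hbb-y* had 1 UMI. *Cygb*, the cytoglobin of fibroblasts and some neurons, was at 31.4 to 39.3 CPM in near-empty barcodes and 6.94 to 9.33 CPM in kept nuclei. *Ngb*, the globin of neurons, was at 3.53 to 9.90 CPM and 0.578 to 2.36 CPM.

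Most genes that define erythroid precursors were absent or rare. Of 30 listed genes 29 were in the gene lists, and 7 had no UMI in near-empty barcodes, among them *Slc4a1*, *Epb42*, *Gata1*, *Rhag*, *Trim10* and *Tspo2*. *Slc4a1* encodes the anion exchanger of the red cell membrane and *Gata1* the master transcription factor of the lineage. *Klf1*, the activator of the adult beta genes, had 3 UMIs in 180000 near-empty barcodes. *Alas2* was lower in near-empty barcodes than in nuclei, at 1.77 to 3.07 CPM against 18.9 to 22.1 CPM, the opposite order to that of haemoglobin. Of the 29 genes, 11 were higher in near-empty barcodes than in kept nuclei, and the share of all genes that were so is not given here.

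Of 14 genes of haem and iron handling, 13 were counted as higher in near-empty barcodes than in kept nuclei. Libraries could disagree, as *Slc40a1* had 2.85 and 2.01 CPM there in PE-low-EV, against 3.76 and 2.25 CPM in kept nuclei. The share of all genes that were higher there is not given here, so the count does not set this list apart. *Fth1*, the heavy chain of the iron store ferritin, was at 4536 to 5560 CPM there and at 524 to 745 CPM in kept nuclei. *Hmox1*, the inducible enzyme that breaks down haem, was at 1.92 to 2.63 CPM and 0.289 to 1.24 CPM. *Cd163*, the receptor for haemoglobin bound to haptoglobin, was at 0.155 to 1.15 CPM and 2.18 to 4.91 CPM.

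Genes of other blood components were scarce. The 6 platelet genes summed to 6.80 to 8.84 CPM in near-empty barcodes and 3.11 to 3.49 CPM in kept nuclei. The 6 neutrophil genes summed to 0.742, 3.87, 4.82 and 4.23 CPM in near-empty barcodes, lowest in PE-low-EV replicate 1. *Alb*, the gene of the liver's plasma protein albumin, had 0 UMIs in both sets.

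The genes whose levels followed haemoglobin most closely over 32 points (classes and near-empty barcodes by library, nuclei kept at 3%) were chosen from 6453 genes. They were *Rpl27a* (Pearson's r of 0.924), *Atp6ap2* (0.924), *Rplp1* (0.923), *Aldoa* (0.919) and *Ndufa11* (0.914). *Rpl27a* and *Rplp1* encode ribosomal proteins and *Aldoa* a glycolytic enzyme. *Rplp1* was at 1579 to 2457 CPM in near-empty barcodes and at 194 to 279 CPM in kept nuclei. At the 15% limit, over 40 points and 7157 genes, *Sptssa* (0.893), *Cnbp* (0.884), *Shisa5* (0.876), *Ddx3x* (0.871) and *Xbp1* (0.864) came first, so none of the 5 was named at both limits. The points of 1 library share its depth and its free RNA, and the values are descriptive.

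PE-high-EV and PE-low-EV libraries were compared on UMIs summed per library (n = 2 per group). In near-empty barcodes *Hba-a1* was at 38.1 ± 8.19 CPM (SD, n = 2) in PE-low-EV and 51.9 ± 2.73 CPM (SD, n = 2) in PE-high-EV. *Hbb-bs* was at 146 ± 20.6 and 180 ± 12.2 CPM. For 4 of the 4 genes both PE-high-EV libraries lay above both PE-low-EV libraries, as did 9.61% of the 14159 genes tested. The genes may share a source, which was not tested, so they are not counted as 4 separate observations. Near-empty barcodes also differed in depth between the groups, with at most 298 and 299 UMIs in PE-low-EV and 247 and 212 in PE-high-EV. The part of depth in these differences was not tested.

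None of these differences passed the test. In edgeR's quasi-likelihood test the log2 fold change (PE-high-EV over PE-low-EV) in near-empty barcodes was 0.50 (SE 0.16, Benjamini-Hochberg adjusted p = 0.863) for *Hba-a1*. It was 0.39 (SE 0.16, edgeR adjusted p = 0.998) for *Hba-a2*, and 0.37 for *Hbb-bs* (SE 0.15, edgeR adjusted p = 0.993) and 0.37 for *Hbb-bt* (SE 0.17, edgeR adjusted p = 0.998). The median over all tested genes was 0.01. Of the 14159 genes edgeR called 0 (0%) at an adjusted p of 0.1, with 657 at an unadjusted p under 0.05, and DESeq2 called 30. Without PE-low-EV replicate 1 the call changed for 3 of the 4 genes, with values of 0.78 for *Hba-a1* (edgeR adjusted p = 0.00259), 0.59 for *Hba-a2* (0.0566) and 0.55 for *Hbb-bs* (0.0272). That fit called 313 of 14648 genes in all (2.14%).

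In kept nuclei the values were less even. *Hba-a2* was at 3.49 ± 0.168 CPM (SD, n = 2) in PE-low-EV and 5.88 ± 1.497 CPM (SD, n = 2) in PE-high-EV, a log2 fold change of 0.74 (SE 0.33, edgeR adjusted p = 1.00). *Hbb-bs* had a value of 0.49 (SE 0.21), *Hbb-bt* 0.80 (SE 0.40) and *Hba-a1* −0.18 (SE 0.32), and none passed. Both PE-high-EV libraries lay above both PE-low-EV libraries for *Hba-a2*, *Hbb-bs* and *Hbb-bt*, and so did 12.2% of the 15190 genes tested. For *Hbb-bs* this margin was that between 21.10 and 21.15 CPM. Kept nuclei were also shallower in PE-high-EV, with median UMIs of 1877 and 1712 against 2332.5 and 2885 in PE-low-EV. The part of depth in the differences was not tested. Here edgeR called 0 genes (0%), with 726 at an unadjusted p under 0.05, and DESeq2 called 2. The value of *Hba-a1* turned to 0.45 at the 15% limit, and that of *Hbb-bs* rose to 0.80 (edgeR adjusted p = 0.00161) without PE-low-EV replicate 1, in a fit that called 940 of 15803 genes (5.95%).

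Within excitatory neuron-like nuclei, where 2 of 13175 genes (0.0152%) were called, no haemoglobin gene was. *Hbb-bt* was at 2.01, 0.803, 2.95 and 3.78 CPM, with the groups apart as in 13% of the genes tested, and its log2 fold change was 1.34 (SE 0.57, edgeR adjusted p = 1.00). *Hbb-bs* was at 19.5, 14.5, 13.0 and 21.8 CPM with a value of 0.16 (SE 0.25), and its groups overlapped. *Hba-a1* had a value of −0.29 (SE 0.43) and *Hba-a2* of −0.18 (SE 0.50), both of which turned positive at the 15% limit (0.31 and 0.34). Without nuclei of 10 or more haemoglobin UMIs these were 0.18 and −0.06. DESeq2 called 0 genes in these nuclei.

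In inhibitory neuron-like nuclei only *Hbb-bs* passed the filter on low counts. It was at 16.8, 13.4, 32.9 and 32.7 CPM, with the PE-high-EV libraries above the PE-low-EV libraries, as for 14.5% of the 9965 genes tested. Its log2 fold change was 1.18 (SE 0.33, edgeR adjusted p = 1.00). In this class edgeR called 0 genes (0%), with 342 at an unadjusted p under 0.05, and DESeq2 called 0. Its largest cluster held 1120 of its 1858 nuclei, unevenly by library (175, 537, 73 and 335). With no mitochondrial limit, a cluster that shared leading genes with it stayed unnamed, since transmitter genes went against the name. Among nuclei kept at 3%, no haemoglobin gene passed the filter in astrocyte-like or oligodendrocyte-like nuclei. There edgeR called 0 of 3856 and 0 of 3986 genes (0% in both), with 258 and 216 at an unadjusted p under 0.05, and DESeq2 called 0. At the 15% limit more of the genes could be tested, and none was called. In inhibitory neuron-like nuclei *Hbb-bs* was then at 20.2, 14.5, 36.4 and 39.5 CPM and *Hba-a1* at 6.62, 4.08, 12.7 and 9.36 CPM, with the groups apart as in 13.8% of 12922 genes. Their log2 fold changes were 1.20 (SE 0.21, edgeR adjusted p = 0.696) and 1.12 (SE 0.36, edgeR adjusted p = 0.999), in a fit that called 0 genes (0%), with 543 at an unadjusted p under 0.05. In oligodendrocyte-like nuclei *Hbb-bs* was at 40.1, 43.0, 65.0 and 123 CPM and *Hba-a2* at 7.74, 4.92, 17.1 and 17.9 CPM, with the groups apart as in 17.2% of 10716 genes. The log2 fold changes there were 1.17 for *Hbb-bs* (SE 0.25, edgeR adjusted p = 0.624), 1.48 for *Hba-a2* (SE 0.44, edgeR adjusted p = 0.627) and 1.05 for *Hba-a1* (SE 0.37, edgeR adjusted p = 0.668), where 1 gene (0.00933%) was called.

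Few nuclei carried part of these differences. Without nuclei of 10 or more haemoglobin UMIs, a choice made after the data had been seen, the oligodendrocyte-like values became 0.53 for *Hbb-bs*, 1.08 for *Hba-a2* and 0.48 for *Hba-a1*, with 1 nucleus of PE-high-EV replicate 2 left out. The inhibitory values became 0.95 for *Hbb-bs* and 1.00 for *Hba-a1*. In astrocyte-like nuclei *Hbb-bs* had a value of 0.50 (SE 0.25, edgeR adjusted p = 0.994) at 15%. An adjusted p above the threshold with 2 libraries per group does not show that the levels were alike.

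**Figure D5:**
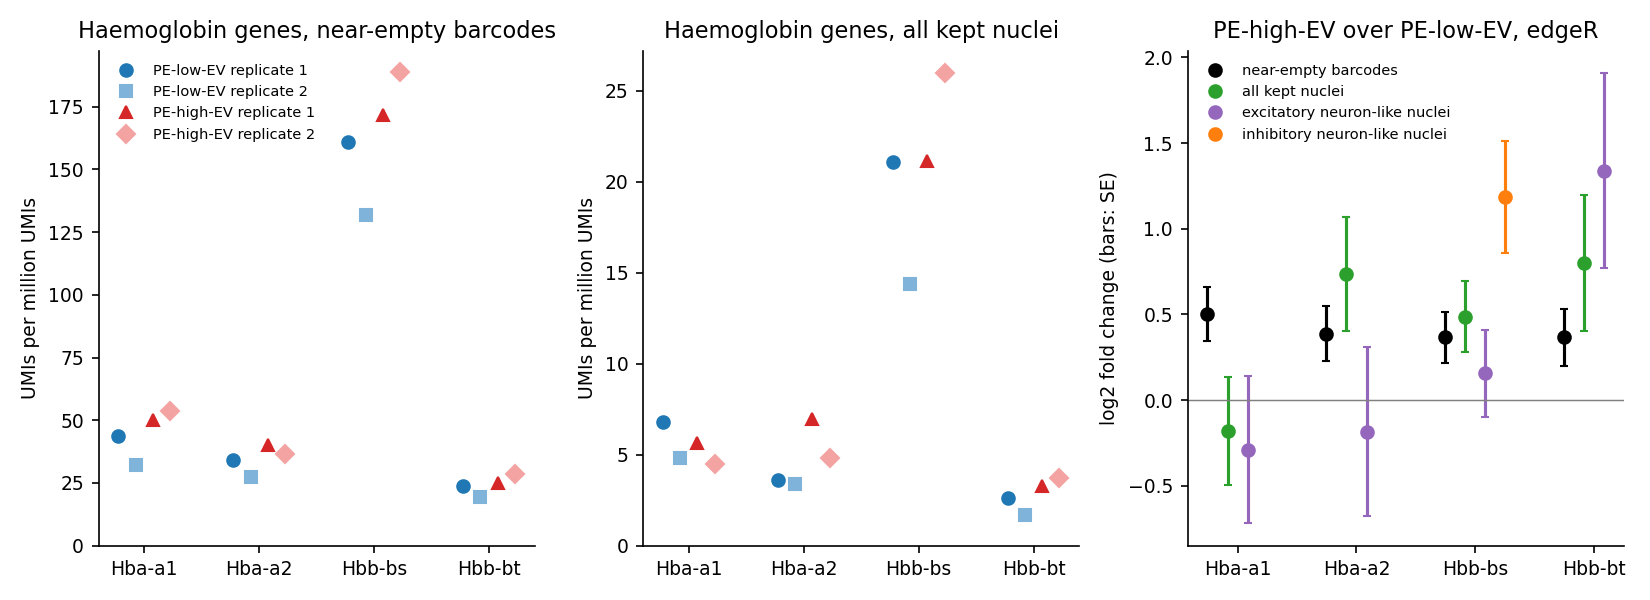
CPM of the 4 haemoglobin genes in near-empty barcodes (left) and in all kept nuclei (middle), 1 marker per library, and log2 fold changes of PE-high-EV over PE-low-EV from edgeR with their SE (right). In near-empty barcodes the fold changes lie between 0.37 and 0.50, and in excitatory neuron-like nuclei between −0.29 and 1.34.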

How the data were processed

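Single-nucleus libraries (10x 3' v3.1 chemistry) came from 2 PE-low-EV and 2 PE-high-EV samples, grouped by the labels. The authors deposited raw UMI counts for every barcode, empty droplets included, which per the submitters' notes were made with Cell Ranger 7.1.0 on mm10. The deposited gene and barcode lists hold names only (unit other), with no measured value. Whether intronic reads were counted is not given in the sources used here. The age of 7 to 10 weeks is that of the series' design text, and the methods of the study give a wider range.

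Barcodes were called as nuclei above a knee, the 0.99 quantile of UMIs divided by 10. Below it, those reaching 500 UMIs were tested against barcodes ranked 45000 to 90000 (10000 simulations, FDR of 0.01). The filters of the study were then used (200 to 2500 genes, mitochondrial share up to 3%), with limits of 15% and none beside them. No doublet caller was run, so doublets remain. Leiden clustering (scanpy 1.11.5, leidenalg 0.10.2, resolution 0.8, 20 neighbours) used 30 principal components of 2000 variable genes under Python 3.11.15 with numpy 2.4.6, scipy 1.17.1 and pandas 2.3.3. A cluster took a non-neuronal name if at least 3 markers of that class reached 20 CPM and 3 times the median cluster, with a mean log2 ratio of 1.5 or more. The others took the neuronal class with the highest marker score, given 3 markers at 20 CPM. Mixed clusters were divided at a resolution of 0.5. Clusters stayed unnamed where markers of another class, or ribosomal, mitochondrial or haemoglobin genes, led, or where transmitter genes went against the name. These naming rules were written after clusters of these data had been seen.

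CPM was computed as haemoglobin UMIs over all UMIs of the summed barcodes. For the tests, summed UMIs per library went into edgeR 4.0.16 (R 4.3.3, quasi-likelihood test, filterByExpr, TMM), and p-values were adjusted after Benjamini-Hochberg over all tested genes, with a threshold of 0.1. The library is the unit of replication, so p-values measure the spread between libraries of pooled mice. Shares carry 95% Wilson intervals, which cover counting error only. Likeness was Pearson's r of log2(CPM + 10) over genes reaching 50 CPM in at least 4 points, and the 5 highest were named. RefSeq tables held a promoter for 4 of 4 genes, and transcripts were those of GENCODE, aligned with Biopython 1.88.

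Alternatives were DESeq2 1.42.0, no filter on low counts, an adjusted p of 0.05, a replicate block, each library left out, other mitochondrial limits, barcodes with 1 to 99 UMIs as near-empty, mean shares of single barcodes, and barcodes with 5% or more haemoglobin left out. The limit of 10 haemoglobin UMIs, alone and together with the 15% limit, and thinning to 200 UMIs were chosen after the data had been seen. The haemoglobin genes and the gene lists were chosen with earlier results of these data known. Named genes are the 4 haemoglobin genes, members of those lists and the genes nearest by likeness. *Cxcl10*, *Bsg*, *mt-Cytb* and the leading genes of the unnamed cluster were named after their values had been seen.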

Additional observations from a re-analysis of the deposited data

How the results depend on the processing

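With 2 libraries per group, the number of genes called moved widely with the fit, and the cause was not tested. In near-empty barcodes, where 0 genes were called, DESeq2 called 30, no filter on low counts gave 122, and barcodes with 1 to 99 UMIs as near-empty gave 2. In kept nuclei, also at 0, these counts were 2 with DESeq2 and 140 without the filter. In excitatory neuron-like nuclei the count of 2 became 0 with DESeq2, 1 at an adjusted p of 0.05, 40 without the filter and 1 at the 15% limit. Without the filter, inhibitory neuron-like nuclei gave 3, astrocyte-like nuclei 2 and oligodendrocyte-like nuclei 2, and the last gave 1 at the 15% limit. Leaving out 1 library at a time gave 0 to 313 genes in near-empty barcodes, 0 to 940 in kept nuclei, 8 to 239 in excitatory, 0 to 39 in inhibitory, 0 to 65 in astrocyte-like and 0 to 5 in oligodendrocyte-like nuclei, where a lone library is assumed to vary like the other group.

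A replicate block raised the counts to 81 in near-empty barcodes, 197 in kept nuclei, 43 in excitatory, 20 in inhibitory, 6 in astrocyte-like and 22 in oligodendrocyte-like nuclei. The replicate numbers are labels only, and same-numbered libraries deviated together with correlations of 0.0532 to 0.146. The block changed no call of a haemoglobin gene (*Hba-a1* in near-empty barcodes had an edgeR adjusted p of 0.111).

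Fold changes of the haemoglobin genes in near-empty barcodes kept their sign in every alternative run. With 1 library left out they ranged from 0.28 to 0.78 for *Hba-a1*, 0.21 to 0.59 for *Hba-a2*, 0.20 to 0.55 for *Hbb-bs* and 0.20 to 0.55 for *Hbb-bt*, and the calls made without PE-low-EV replicate 1 are given above. In kept nuclei *Hbb-bs* ranged from 0.23 to 0.80. *Hba-a1* in kept nuclei ranged from −0.44 to 0.062, positive without PE-low-EV replicate 1 and without PE-high-EV replicate 2. It was 0.45 at the 15% limit, 0.48 at that limit without nuclei of 10 or more haemoglobin UMIs and 0.58 with no limit. In excitatory neuron-like nuclei *Hba-a1* ranged from −0.64 to 0.14, *Hba-a2* from −0.40 to 0.046 and *Hbb-bs* from −0.33 to 0.39. The first 2 turned positive without PE-low-EV replicate 1, and *Hbb-bs* turned negative without PE-low-EV replicate 2 or PE-high-EV replicate 2. At the 15% limit and with no limit, *Hba-a1* there was 0.31 and 0.49 and *Hba-a2* 0.34 and 0.38. At the 15% limit without nuclei of 10 or more haemoglobin UMIs *Hba-a1* was 0.18, and the number of genes called was 1 in excitatory neuron-like and 1 in oligodendrocyte-like nuclei, as with them.

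Levels moved with their definition. As a mean of single-barcode shares, near-empty barcodes had 206 CPM and kept nuclei 40.8 CPM. Barcodes with 1 to 99 UMIs had 155 CPM. Kept nuclei had 74.4 CPM at the 15% limit and 85.0 CPM with no limit. The ratio of kept nuclei to near-empty barcodes was 0.198 from single-barcode shares, 0.278 at 15%, 0.315 with no limit and 0.218 against barcodes with 1 to 99 UMIs. From single-barcode shares the ratio was 0.146 in excitatory, 0.209 in inhibitory, 0.200096 in striatal, 0.369 in astrocyte-like, 0.299 in oligodendrocyte-like and 0.449 in precursor-like nuclei. Against barcodes with 1 to 99 UMIs it was 0.179, 0.238, 0.24025, 0.33972, 0.279 and 0.515 in the same order. At 15% and with no limit it was 0.124 and 0.129 in excitatory, 0.26141 and 0.263 in astrocyte-like, 0.39960 and 0.39926 in oligodendrocyte-like and 0.600 and 0.568 in microglia-like nuclei. These means stayed below 1, but PE-high-EV replicate 1 of the microglia-like nuclei was at 1.20 at 15% and 1.12 with no limit. With barcodes of 10 or more haemoglobin UMIs left out of both these nuclei and the near-empty barcodes, that library was at 0.328 and 0.34980. The *Hba-a2* share of haemoglobin UMIs was 13.9% and the *Hbb-bt* share 8.27% in kept nuclei, and the *Hbb-bt* share was 8.75% over all barcodes. Microglia-like nuclei at 3% rest on 18 haemoglobin UMIs, which limits what their level can show.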
